A study of Mus musculus with 40 samples.

Results

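Acetylcholine in the striatum comes mainly from a small population of cholinergic interneurons, and 10 of the 24060 genes in the count table describe its synthesis, storage, breakdown and muscarinic reception. The members were taken by gene symbol and are Chat, Slc18a3, Slc5a7, Ache, Bche, Chrm1, Chrm2, Chrm3, Chrm4 and Chrm5. All 10 were counted in every library and passed the filter on low counts in each comparison. RNA was sequenced from mouse striatum in 40 libraries, in 10 groups of 4, by the RiboTag method or as bulk tissue. In RiboTag, an AAV carries Rpl22 with an HA tag under the GfaABC1D promoter, which is active in astrocytes, or the hSyn1 promoter, which is active in neurons. Tagged ribosomes were pulled down from the lysate with their RNA (IP), and the input is RNA of the same kind of lysate with all cell types.

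The Control groups (input and IP) came from C57/BL6NTac mice, and the labels do not name their promoter. The study's methods describe both constructs in this strain. The Control groups are taken here as the astrocyte RiboTag because of the astrocyte markers in their IP, given below. The Syn groups (input and IP) came from C57/BL6NTac mice with the hSyn1 construct. The SAPAP3 cohort has input and IP of C57/BL6J mice (WT) and of C57/BL6J-Dlgap3 KO mice (KO), which lack SAPAP3, a postsynaptic scaffold protein. The cell type of its RiboTag is not named in the labels. Bulk WT and bulk KO striatum are both labelled C57/BL6NTac, and 1 animal number appears under both genotypes. The AAV went into the dorsal striatum of grown mice, and the SAPAP3 cohort was injected at an older age than the others. The promoter is meant to limit which infected cells carry the tag, and tag in other cells was not measured here. The paper reports some AAV expression near the needle path in cortex, and sometimes in the corpus callosum.

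Acetylcholine is made from choline and acetyl-CoA by choline acetyltransferase (Chat), loaded into vesicles by the vesicular acetylcholine transporter (Slc18a3) and hydrolysed outside the cell by acetylcholinesterase (Ache). Choline is then taken back up by the high-affinity choline transporter (Slc5a7), and butyrylcholinesterase (Bche) is a second, broader hydrolase. Of the receptors, Chrm1, Chrm3 and Chrm5 couple to Gq, and Chrm2 and Chrm4 couple to Gi/o. Medium spiny neurons, the projection neurons of the striatum, are known for Chrm1 and Chrm4, and cholinergic interneurons for the autoreceptors Chrm2 and Chrm4.

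Chat and Slc18a3 form 1 locus. In GRCm38.p6, the assembly of mm10, Chat lies on the minus strand of chromosome 14 at 32408203 to 32465909, and the single exon of Slc18a3 (32462437 to 32464850) sits inside it on the same strand without touching a Chat exon. Slc5a7 is on chromosome 17 (54273590 to 54299038), Ache on chromosome 5 (137288247 to 137294466) and Bche on chromosome 3 (73635805 to 73708436). Chrm1 is on chromosome 19 (8664005 to 8683606), Chrm2 on chromosome 6 (36387991 to 36528638), Chrm3 on chromosome 13 (9875486 to 10361062), and Chrm4 (91922189 to 91929835) and Chrm5 (112478733 to 112536361) are both on chromosome 2. Ache shares 97 exonic bases with Mir8116 on the same strand. On the opposite strand Chrm3 shares 104 with Gm26861, which has no row in the count table, Chrm2 shares 79 with 9330158H04Rik and Chrm4 shares 31 with Mdk, and the strand setting of the counting was not given in the sources used here.

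The transcripts of Chat, Slc18a3 and Slc5a7 moved together in the comparisons below, so 250 bases before the start that RefSeq's promoter table gives each (GRCm38.p6) are printed to show what lies upstream. For Slc5a7 that start lies inside the gene as given above, so the last 4 bases of its window, with part of its last E-box, are within the gene. All are on the minus strand, at chr14:32465910-32466159, chr14:32464851-32465100 and chr17:54299035-54299284, 5′ to 3′. Capitals mark E-boxes (CANNTG), GC boxes (GGGCGG) and TATA boxes (TATAAA), read on both strands, and no marked motifs overlap.
Chat: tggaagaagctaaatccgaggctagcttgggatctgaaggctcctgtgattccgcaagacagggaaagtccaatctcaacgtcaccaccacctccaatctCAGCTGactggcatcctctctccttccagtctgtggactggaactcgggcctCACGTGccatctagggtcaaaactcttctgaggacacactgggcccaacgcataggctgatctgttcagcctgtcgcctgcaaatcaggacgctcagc
Slc18a3: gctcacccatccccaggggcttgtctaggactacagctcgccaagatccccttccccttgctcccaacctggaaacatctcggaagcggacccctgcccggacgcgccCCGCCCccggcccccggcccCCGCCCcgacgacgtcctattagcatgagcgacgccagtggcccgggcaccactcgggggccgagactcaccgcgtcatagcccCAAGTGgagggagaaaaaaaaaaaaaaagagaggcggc
Slc5a7: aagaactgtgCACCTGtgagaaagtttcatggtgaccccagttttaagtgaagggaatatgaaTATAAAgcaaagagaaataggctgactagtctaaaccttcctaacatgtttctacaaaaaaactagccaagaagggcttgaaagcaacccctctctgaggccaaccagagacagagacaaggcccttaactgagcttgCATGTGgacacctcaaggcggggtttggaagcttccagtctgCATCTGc
The Chat window held 2 E-boxes, the Slc18a3 window 2 GC boxes and 1 E-box, and the Slc5a7 window 3 E-boxes and 1 TATA box. The letters TAATTA, a core of homeodomain sites, were in none of the 3 windows and in 4.84% of 32851 windows of the same length in the RefSeq table. E-boxes were in 66.2%, GC boxes in 32.7% and TATA boxes in 12.4% of those windows, so the letters found here are common ones.

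The depth was 24697181 to 30008152 counts per library in Control input, 44039366 to 48389014 in Control IP, 23438112 to 33333324 in the SAPAP3 cohort inputs, 40367540 to 47699278 in its IPs, 50996128 to 84109800 in the Syn cohort and 54689535 to 75203125 in bulk striatum. Dlgap3 itself was at 376 to 514 CPM (counts scaled to the library total) in SAPAP3 cohort WT input against 166 to 200 in KO input, at 154 to 212 against 49.8 to 87.2 in IP, and at 232 to 385 against 143 to 161 in bulk striatum, without overlap. The Control IP was taken as astrocyte RiboTag from 10 astrocyte markers, which summed to 32566 to 34938 CPM in IP and 3733 to 3894 in input. The SAPAP3 cohort IPs resembled it, at 23579 to 35221 CPM, and the Syn IP did not, at 3541 to 3853 CPM. Neuron markers summed to 8745 to 9564 CPM in Syn IP against 6926 to 7565 in its input.

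Expression of the 10 genes in striatal tissue was dominated by 2 muscarinic receptors. Per length, in RPKM (CPM per kilobase of merged exons), Control input held 45.5 ± 1.93 of Chrm4 and 27.4 ± 1.21 of Chrm1 (SD, n = 4 here and below). Ache followed at 19.2 ± 1.21, Chat at 11.04 ± 1.29, Slc5a7 at 8.00 ± 0.641 and Slc18a3 at 4.54 ± 0.70 RPKM. Chrm3, Chrm2, Bche and Chrm5 were lower, at 3.32, 1.33, 0.891 and 0.484 RPKM. The ranges of neighbours in this order did not overlap in Control input. In Syn input Chrm1 (30.2 ± 1.36) and Chrm4 (27.9 ± 2.02) overlapped, as they did in bulk KO (27.3 ± 1.64 and 27.4 ± 2.31).

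The order changed in the Control IP, where Chat (51.1 ± 1.31 RPKM) and Ache (48.4 ± 2.61) led with overlapping ranges. Slc5a7 came next at 36.8 ± 1.08 RPKM, ahead of Chrm4 at 22.8 ± 1.98, Slc18a3 at 17.97 ± 1.43 and Chrm1 at 11.6 ± 0.618. In Syn IP, by contrast, Chrm4 (41.1 ± 2.29) and Chrm1 (30.8 ± 1.76) stayed on top, Ache followed (17.2 ± 2.60), and Chat was at 9.85 ± 2.22 RPKM. Bche had the lowest level there, 0.307 ± 0.0916 RPKM, overlapping Chrm5 at 0.492 ± 0.107. Across the 10 groups the Chat level followed the order Control IP, SAPAP3 cohort WT IP and KO IP (these 2 overlapped), then Control input, Syn IP, bulk WT, bulk KO, SAPAP3 cohort WT input, KO input and Syn input, and from Control input on each group overlapped the next. Cohorts were handled separately, so cohort and construct cannot be told apart in levels set across them.

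**Figure D1:**
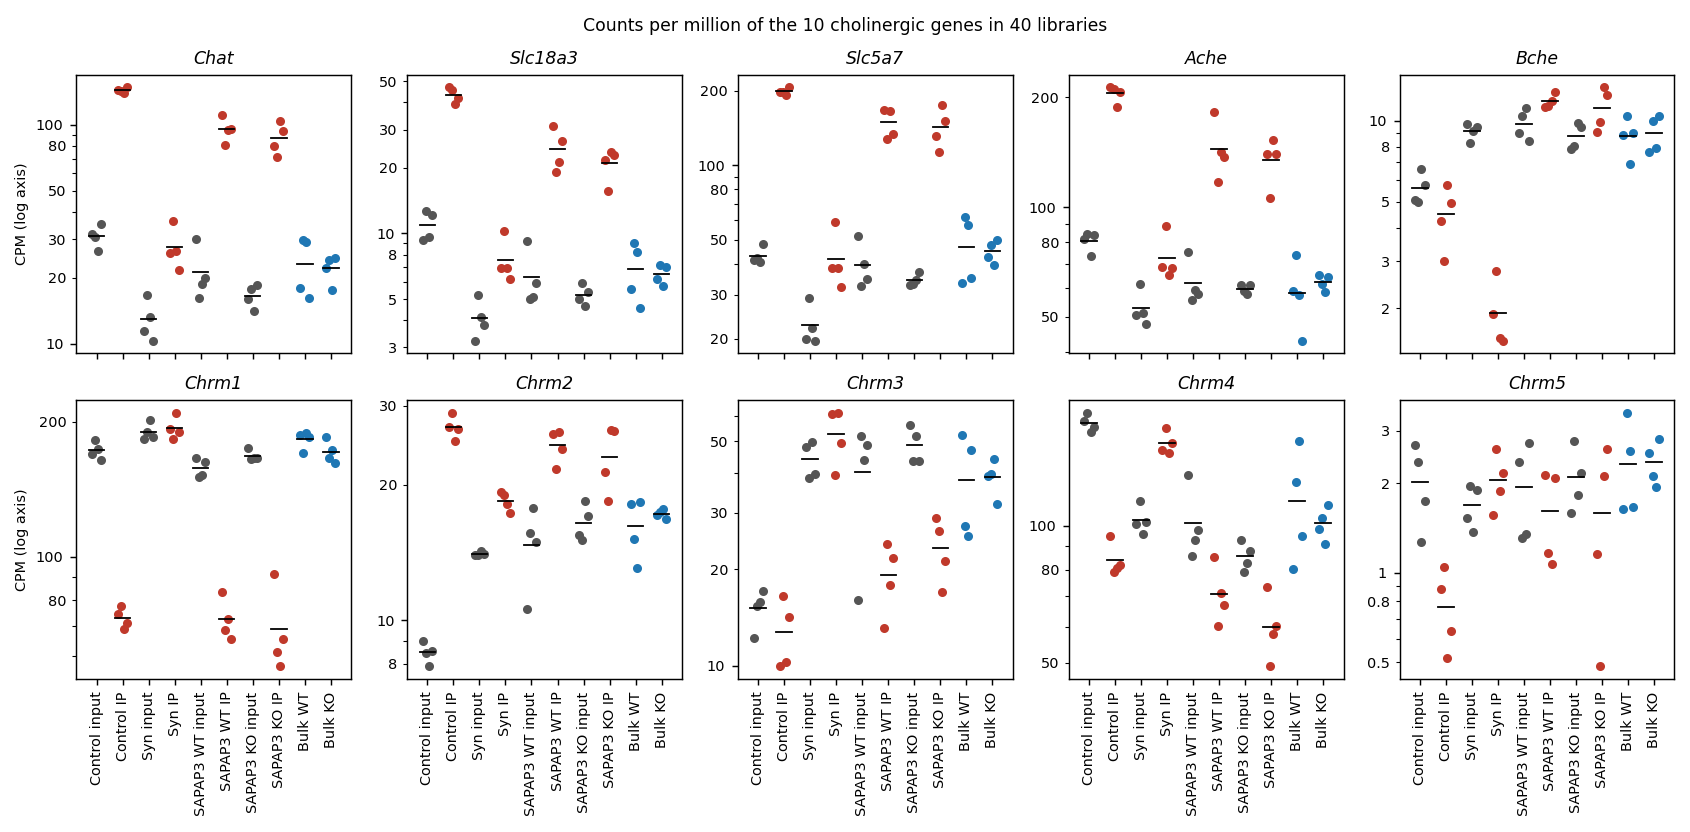
CPM of each gene on a log axis in 10 groups. Points are libraries (IP in red, input in grey, bulk in blue) and bars are group means of 4 libraries. The Control IP holds the highest Chat values, 139 to 148 CPM, and the Syn IP the lowest Bche values, 1.52 to 2.75 CPM.

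The astrocyte RiboTag IP was rich in the RNA of the acetylcholine-making machinery. Chat stood at 144, 143, 139 and 148 CPM in the 4 Control IP libraries and at 31.6, 30.9, 26.4 and 35.2 CPM in the inputs. The groups were far apart, and Chat was 5.41-fold higher in IP (log2FC 2.44 ± 0.0661 SE, edgeR adjusted p = 4.4e-11). Slc5a7 was at 198, 197, 192 and 206 CPM in IP and 41.4, 42.2, 40.8 and 48.3 CPM in input, a difference of 2.42 ± 0.0493 (adjusted p = 6.8e-12). Slc18a3 was at 46.9, 45.4, 39.3 and 41.9 CPM in IP and 9.37, 12.7, 9.63 and 12.1 CPM in input (2.21 ± 0.0969, adjusted p = 2e-09). The synthesis, vesicle and reuptake genes thus rose between 4.62-fold and 5.41-fold.

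Of the 2 hydrolases, Ache rose and Bche did not pass the test. Ache was at 213, 210, 188 and 207 CPM in Control IP and 81.7, 84.5, 73.4 and 83.9 CPM in input, without overlap (log2FC 1.56 ± 0.0516, adjusted p = 2e-10). Bche was at 4.24, 3.02, 5.79 and 4.95 CPM in IP and 5.07, 5.00, 6.60 and 5.75 CPM in input, and the ranges overlapped (-0.10 ± 0.18, adjusted p = 0.63, and 1.10 with the scaling to ribosomal protein genes described below).

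Among the receptors, Chrm2 rose in the Control IP. It was at 26.8, 28.9, 25.1 and 26.6 CPM in IP and at 9.01, 8.46, 7.90 and 8.54 CPM in input, 3.69-fold higher (log2FC 1.89 ± 0.0632, adjusted p = 2.2e-10). Chrm1 was at 74.5, 77.7, 68.9 and 71.1 CPM in IP against 170, 182, 174 and 164 CPM in input, and Chrm4 at 95.04, 79.1, 80.7 and 81.9 CPM against 170, 177, 160 and 165. These receptors of the projection neurons both lay below every input library. Chrm1 fell by 1.02 ± 0.0482 (adjusted p = 3.9e-09), Chrm4 by 0.77 ± 0.0581 (adjusted p = 2.1e-07) and Chrm5 by 1.16 ± 0.279 (adjusted p = 0.0025), but scaling to 78 ribosomal protein genes turned the 3 values to 0.18, 0.42 and 0.03. That scaling moved the median log2FC of all genes from -0.025 to 1.17, so all 3 stayed below that median. Chrm5, a rare transcript, was at 0.882, 1.04, 0.517 and 0.636 CPM in IP against 2.69, 2.36, 1.27 and 1.74 CPM in input. Chrm3 did not pass the test, with 9.98, 16.5, 10.3 and 14.2 CPM in IP and 12.2, 15.4, 15.8 and 17.1 CPM in input (-0.03 ± 0.16, adjusted p = 0.88, and 1.18 with that scaling).

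In all, 5 of 10 members were higher and 3 lower at an adjusted p under 0.05, beside 39.2% and 41.2% of all 15476 genes tested. With the study's further limit of 1 on the log2 scale, 5 were higher and 2 lower, beside 13.4% and 13.5% of genes. With ribosomal scaling 9 were higher and 0 lower, beside 84.8% and 7.08% of genes. The median log2FC of the members was 0.77. Markers of other cell types moved in the same IP. For these and all other gene lists, directions and medians are given with TMM scaling alone. Ribosomal scaling moved the median of all genes in this IP to 1.17. All 10 medium spiny neuron markers fell (median -1.03, summed 2386 to 2928 CPM against 5586 to 5871 in input). Of 8 markers of other striatal interneurons, 6 rose and 1 fell (median 1.48, summed 855 to 983 CPM against 245 to 251). Of 10 oligodendrocyte markers, 1 rose and 3 fell (median 0.02). General neuron markers were mixed, with 5 of 10 higher, 2 lower and a median of 0.12, at 4542 to 5034 CPM against 5390 to 5500. Their part in the cholinergic values was not tested, and in these libraries more cells of a type and more RNA per tagged cell cannot be told apart.

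The neuron RiboTag IP held 9 of the 10 members above its input and 1 below, beside 35.5% and 35.9% of all genes tested. Chat was at 25.9, 36.5, 26.5 and 21.8 CPM in Syn IP and 11.4, 16.6, 13.2 and 10.3 CPM in input (log2FC 1.30 ± 0.18, adjusted p = 9.7e-05). Slc5a7 was at 38.5, 58.8, 38.5 and 32.4 CPM in IP against 19.9, 29.01, 22.1 and 19.6 in input (1.09 ± 0.188, adjusted p = 0.00044), and Slc18a3 at 6.91, 10.2, 6.93 and 6.18 against 3.22, 5.20, 4.16 and 3.80 (1.09 ± 0.185, adjusted p = 0.00041). The IP and input ranges of all 3 genes were separate. These 3 were also past the limit of 1, which 0.42% of genes reached upward. Ache was at 68.7, 88.9, 64.9 and 68.0 CPM in IP and 50.7, 61.6, 51.4 and 47.7 CPM in input, without overlap (0.66 ± 0.108, adjusted p = 0.0003).

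Bche went the other way in the Syn IP. It was at 1.90, 2.75, 1.55 and 1.52 CPM in IP against 9.75, 8.28, 9.18 and 9.52 CPM in input, and every IP library was below every input. It fell by 2.05 ± 0.17 on the log2 scale (adjusted p = 3.1e-06), past the limit of -1 that 15.8% of genes reached. All 10 oligodendrocyte markers also fell in this IP (median -1.57, summed 1284 to 2060 CPM against 5049 to 6748), and 7 of 10 astrocyte markers fell. So did all 10 microglia markers (median -4.44), all 10 endothelial and mural markers (-3.41) and all 5 oligodendrocyte precursor markers (-2.18). Their part in the Bche value was not tested.

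All 5 muscarinic receptors rose in the Syn IP, by less than the limit of 1, but 3 of the calls depended on a setting or a library. Chrm4 was at 147, 163, 145 and 152 CPM in IP and 101, 113, 95.7 and 102 CPM in input (log2FC 0.76 ± 0.0582, adjusted p = 1.8e-06), and Chrm2 at 19.2, 19, 18.1 and 17.3 against 14.0, 13.9, 14.2 and 14.0 (0.59 ± 0.0502, adjusted p = 3.4e-06). The libraries of both genes were separate. Chrm1 was at 193, 183, 209 and 189 CPM in IP and 183, 190, 202 and 185 CPM in input, ranges that overlap on this scale, and rose by 0.23 ± 0.0575 after TMM scaling (adjusted p = 0.0041). Chrm3 was at 61.0, 39.2, 61.4 and 49.5 CPM against 48.2, 38.5, 49.9 and 39.5 (0.47 ± 0.148, adjusted p = 0.016). With the study's filter on FPKM the calls of Chrm1 (0.06, adjusted p = 0.39) and Chrm3 (0.29, adjusted p = 0.12) were lost. Chrm5 was at 1.56, 2.61, 1.88 and 2.16 CPM against 1.53, 1.962, 1.37 and 1.90 (0.48 ± 0.182, adjusted p = 0.036). Chrm5 lost its call without input library 1 (0.44, adjusted p = 0.085) or 3 (0.40, adjusted p = 0.084), or IP library 2 (0.36, adjusted p = 0.092) or 4 (0.47, adjusted p = 0.071). With IP and input paired by the number in the title, Chrm1, Chrm3 and Chrm5 all passed in edgeR (0.23, 0.46 and 0.48, adjusted p = 1.7e-05, 1.1e-06 and 0.0023). With ribosomal scaling 9 members were higher and 1 lower, beside 60.4% and 19.2% of genes. The median of the members was 0.63, beside -0.002 over all genes, and all 10 medium spiny neuron markers rose (median 0.84). Of 8 markers of other striatal interneurons, 6 rose and 0 fell (median 0.55).

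**Figure D2:**
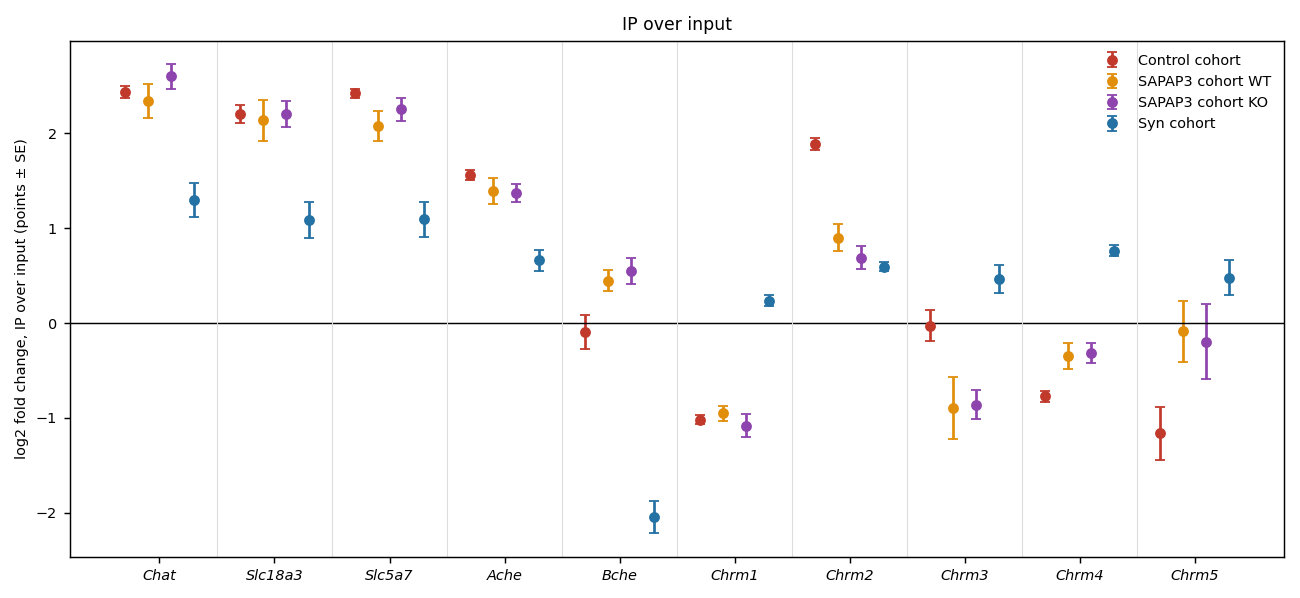
log2 fold change of IP over input for each gene in 4 cohorts, as fitted by edgeR with TMM scaling. Points are estimates with SE bars. Chat, Slc18a3 and Slc5a7 lie above 2 in the Control and SAPAP3 cohorts and between 1.09 and 1.30 in the Syn cohort, while Chrm1 and Chrm4 lie below 0 in the former (with ribosomal scaling, Chrm1 in the Control cohort and Chrm4 in all of these move above 0) and above 0 in the latter.

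Whether the enrichment differed between the astrocyte and neuron constructs was tested as an interaction over the Control and Syn groups. IP over input was smaller in the Syn cohort for 6 members and larger for 3, beside 34.3% and 35.8% of genes. Of 8 markers of other striatal interneurons, 6 were also smaller and 1 was larger (median -1.22). The Chat value was lower by 1.13 ± 0.203 (log2 scale, adjusted p = 8.8e-05), Slc18a3 by 1.12 ± 0.22 (adjusted p = 0.00022), Slc5a7 by 1.33 ± 0.208 (adjusted p = 2.2e-05) and Ache by 0.90 ± 0.126 (adjusted p = 6.5e-06). Chrm2 was lower by 1.29 ± 0.0778 (adjusted p = 1.4e-10) and Bche by 1.95 ± 0.267 (adjusted p = 4.8e-06). The enrichment was larger in the Syn cohort for Chrm1 (1.25 ± 0.0789, adjusted p = 2.6e-10), Chrm4 (1.54 ± 0.0847, adjusted p = 4.6e-11) and Chrm5 (1.64 ± 0.343, adjusted p = 0.00041). For Chrm3 it missed the threshold (0.49 ± 0.242, adjusted p = 0.08). With the replicate block, which pairs each IP with its input (in the Syn cohort by the number in the title), the Chrm3 value passed (adjusted p = 0.00072). Scaling to ribosomal protein genes turned it to -0.25 (adjusted p = 0.36) and moved the median of all genes to -0.72. It left 6 members smaller and 3 larger, beside 69.5% and 6.90% of genes. It also passed without Control input library 1 (0.58, adjusted p = 0.048), Control IP library 2 (0.65, adjusted p = 0.021) or Syn IP library 2 (0.62, adjusted p = 0.02). Inputs of the Syn cohort carried more of 7 cortical excitatory neuron markers (summed 786 to 1073 CPM) than those of the Control cohort (103 to 138). The tissue of the 2 cohorts thus differed besides the construct, and construct, cohort and sex cannot be told apart.

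The IPs of the SAPAP3 cohort resembled the Control IP in the presynaptic genes. Chat was at 111, 81.0, 94.2 and 95.4 CPM in WT IP and 30.2, 16.2, 18.6 and 19.9 CPM in WT input (log2FC 2.34 ± 0.181, adjusted p = 4.1e-06). In KO mice it was at 79.8, 71.0, 104 and 94.0 CPM in IP and 15.9, 17.7, 14.1 and 18.6 CPM in input (2.60 ± 0.129, adjusted p = 4.2e-08). Every IP library was above every input in both genotypes. Slc18a3 rose by 2.14 ± 0.22 in WT and 2.21 ± 0.134 in KO (adjusted p = 2.4e-05 and 1.8e-07). Slc5a7 rose by 2.08 ± 0.154 and 2.26 ± 0.12 (adjusted p = 3.2e-06 and 6.8e-08), and Ache by 1.39 ± 0.14 and 1.37 ± 0.0963 (adjusted p = 2e-05 and 4.7e-07).

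Bche, which missed the threshold in the Control IP, was higher in both SAPAP3 cohort IPs. It was at 11.2, 11.4, 11.9 and 12.8 CPM in WT IP against 9.04, 10.4, 11.2 and 8.38 CPM in input (log2FC 0.45 ± 0.11, adjusted p = 0.0053), and at 9.09, 9.90, 13.3 and 12.5 CPM in KO IP against 7.83, 8.07, 9.81 and 9.46 CPM (0.55 ± 0.135, adjusted p = 0.0035). In WT every IP library was above every input, by a small margin, and in KO the ranges overlapped. Of 10 oligodendrocyte markers, 8 rose in each genotype's IP (summed 6732 to 10522 CPM against 5826 to 6767 in the inputs). All 10 astrocyte markers rose as well (medians 2.30 in WT and 2.39 in KO). Of 5 oligodendrocyte precursor markers, 4 rose in WT and 5 in KO, and 0 fell (medians 0.92 and 1.12). All 10 microglia markers and 9 of 10 endothelial and mural markers fell in each genotype. Over all genes 32.7% rose and 34.6% fell in WT, and 36.1% and 35.9% in KO. Their part in the Bche value was not tested.

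Of the receptors, Chrm2 rose in these IPs and Chrm1, Chrm3 and Chrm4 fell, the last 3 with calls that ribosomal scaling changed in WT. Chrm2 was at 25.99, 21.6, 26.2 and 24.1 CPM in WT IP against 10.6, 15.6, 17.7 and 14.9 CPM in input (log2FC 0.90 ± 0.146, adjusted p = 0.00043), and rose by 0.69 ± 0.119 in KO (adjusted p = 0.00034). Chrm1 was at 83.7, 68.5, 72.6 and 65.5 CPM in WT IP against 166, 151, 152 and 163 CPM in input, and fell by 0.95 ± 0.0774 in WT and 1.08 ± 0.122 in KO (adjusted p = 5.6e-06 and 1.5e-05), values that ribosomal scaling took to -0.20 (adjusted p = 0.13) and -0.46 (adjusted p = 0.0038). Chrm1 lay below every input in both genotypes. Chrm4 fell by 0.34 ± 0.137 in WT (adjusted p = 0.048) and 0.31 ± 0.104 in KO (adjusted p = 0.019), but ribosomal scaling turned these values to 0.42 and 0.32, with the median of all genes at 0.71 and 0.63. Chrm3 fell by 0.89 ± 0.328 in WT (adjusted p = 0.035) and 0.86 ± 0.153 in KO (adjusted p = 0.00043). With ribosomal scaling the Chrm3 values were -0.19 and -0.23 (adjusted p = 0.59 and 0.2), past no threshold. Chrm5 missed the threshold in both (-0.09 ± 0.324 and -0.19 ± 0.401, adjusted p = 0.82 and 0.67), and in WT ribosomal scaling turned it to 0.68 (adjusted p = 0.046).

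In WT, 6 members were higher and 3 lower, beside 32.7% and 34.6% of genes. In KO, 6 were higher and 3 lower, beside 36.1% and 35.9%. With ribosomal scaling 8 were higher and 0 lower in WT (68.9% and 9.03% of genes), and 7 higher and 1 lower in KO (68.0% and 10.9%). Past the limit of 1, 4 members were higher in each genotype, beside 10.9% of genes in WT and 12.3% in KO, and 1 was lower in KO, beside 11.5%. The medians of the members were 0.67 and 0.62, beside -0.032 and -0.004 over all genes. Of 8 markers of other striatal interneurons, 6 rose and 0 fell in WT, and 5 rose and 1 fell in KO (medians 1.12 and 0.90). In KO mice the Chrm4 call was lost without input library 1 (-0.26, adjusted p = 0.059). The IP over input values did not pass a test of the difference between KO and WT for any member (0 of 10, 0% of all genes tested, edgeR, 0 members with an unadjusted p under 0.05). The largest such difference was 0.25 ± 0.203 lower in KO, for Chrm2, and limma-voom and DESeq2 also called 0 members.

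The 2 least stable values in WT were those of Chrm3 and Chrm4, and 1 WT mouse stood apart. Its input had 16 CPM of Chrm3, and the other WT inputs had 51.9, 43.7 and 48.6. It also had 30.2 CPM of Chat and 129 CPM of Chrm4, above the other WT inputs. The same input held 106 CPM of the cortical excitatory neuron markers, against 643 to 820 in the other WT inputs, and 5458 CPM of medium spiny neuron markers, against 2879 to 3343. Without both libraries of this mouse the Chrm3 value was -0.97 (adjusted p = 0.00017) and the Chrm4 value -0.27 (adjusted p = 0.019), and 9 members still passed. Leaving out its input alone took Chrm4 to -0.21 (adjusted p = 0.12), and its IP alone took Chrm3 to -0.76 (adjusted p = 0.087).

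Other single WT libraries decided these 2 calls as well in this fit, which does not pair IP with input. Chrm3 missed the threshold without input library 2 (-0.74, adjusted p = 0.095), 3 (-0.84, adjusted p = 0.069) or 4 (-0.79, adjusted p = 0.087), or IP library 3 (-0.88, adjusted p = 0.073) or 4 (-0.97, adjusted p = 0.053). Chrm4 missed it without input library 3 (-0.37, adjusted p = 0.056) or 4 (-0.36, adjusted p = 0.074), or IP library 2 (-0.28, adjusted p = 0.1), 3 (-0.36, adjusted p = 0.065) or 4 (-0.33, adjusted p = 0.088). With the replicate block and all libraries, both passed in edgeR, Chrm3 at -0.81 (adjusted p = 0.0008) and Chrm4 at -0.34 (adjusted p = 0.00056).

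The makeup of muscarinic receptor RNA differed between the IPs. Of the summed RPKM of the 5 receptors, Chrm2 made up 1.70% ± 0.0981 in Control input and 10.1% ± 0.498 in Control IP. In the Syn cohort it made up 3.13% ± 0.0769 in input and 3.32% ± 0.168 in IP. The SAPAP3 cohort IPs were close to the Control IP, at 9.79% ± 0.58 in WT and 10.1% ± 2.26 in KO. Chrm4 was the largest part in the Control IP (54.8% ± 3.12) and the Syn IP (47.4% ± 3.40), and Chrm1 made up 27.9% ± 1.03 and 35.5% ± 1.35 of them. Chrm5 was at most 1.74% in any library of the SAPAP3 KO IP. The sum itself was lower in Control IP (39.1 to 44.2 RPKM) than in its input (76.01 to 82.2), and higher in Syn IP (85.4 to 89.2) than in its input (68.3 to 72.1). These shares rest on the same counts as the comparisons above and were not tested again.

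**Figure D3:**
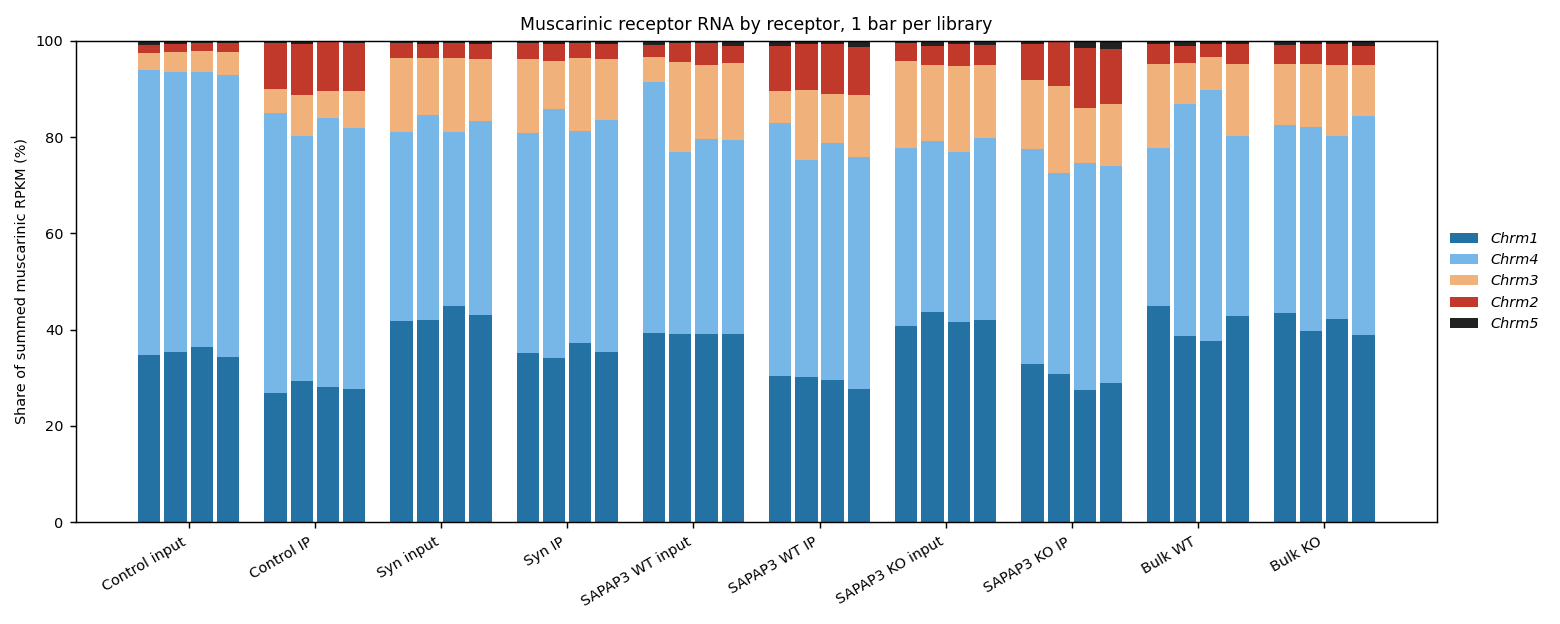
Share of the summed RPKM of the 5 muscarinic receptors held by each receptor, in percent, with 1 bar per library and 10 groups of 4. The red band of Chrm2 is between 7.52% and 12.5% in the Control and SAPAP3 cohort IPs and between 1.61% and 4.53% in the input, bulk and Syn IP libraries.

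Most of the other genes listed as marks of striatal cholinergic neurons were higher in the IPs. Their list was chosen with earlier results of these data known, so it is not separate support. Of 8 identity genes (transcription factors and transporters among them), 6 rose and none fell in the Control IP, with a median log2FC of 1.40, beside the 39.2% and 41.2% of all genes. Among those that rose were Slc17a8, a vesicular glutamate transporter that these neurons also carry (2.82 ± 0.0561, adjusted p = 5.5e-12), Slc10a4, a vesicle protein (2.27 ± 0.0717, adjusted p = 1.4e-10) and the transcription factor Lhx8 (1.40 ± 0.0864, adjusted p = 3.7e-08). In the Syn IP 6 rose and 1 fell, with a median of 0.91, beside 35.5% and 35.9%. Slc10a4 was among those that rose (1.14 ± 0.204, adjusted p = 0.00057), and the gene that fell was Zic4, a transcription factor (-0.70 ± 0.275, adjusted p = 0.041). In the SAPAP3 cohort 6 rose in WT IP and 7 in KO IP, and none fell (medians 1.55 and 1.67), beside 32.7% and 36.1% of genes higher. The interaction was negative for 4 of the 8 and positive for 1, Isl1, beside 34.3% and 35.8% of all genes. The remaining 3 missed the threshold. Both cholinesterase anchors rose in the Control IP, Colq, the collagen tail, by 2.07 ± 0.205 (adjusted p = 2.4e-06) and Prima1, the membrane anchor, by 0.43 ± 0.0785 (adjusted p = 0.00038).

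Nicotinic receptor subunits, the ion channel arm of cholinergic reception, moved without a common direction. Of 16, 9 passed the filter in the Control cohort, of which 2 rose and 3 fell (median 0.09), no more than the 39.2% and 41.2% of all genes. Most of those called were rare. Chrna3 rose by 1.58 ± 0.242 (adjusted p = 9.3e-05), from a mean of 0.603 CPM in input to 1.57 CPM in IP. Chrnb3 was at 0.273 to 1.11 CPM in IP and 0.0333 to 0.161 in input, and Chrna10 at 0.0227 to 0.145 in IP and 0.283 to 0.600 in input. Genes as rare as these could pass the filter through the group where they were higher, so their direction is a description. In the Syn IP 12 were tested, 4 rose and 2 fell (median 0.40), beside 35.5% and 35.9% of genes. Of 5 chaperones and Ly6 modulators of these receptors, all tested, 2 rose and 3 fell in the Control IP (median -0.40), and 3 rose and 1 fell in the Syn IP (median 0.32).

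Of 9 tested genes for choline and acetyl-CoA supply, 5 rose and 1 fell in the Control IP (median 0.31), and 1 rose and 5 fell in the Syn IP (median -0.14). Among those that rose in the Control IP were Acly, which makes acetyl-CoA from citrate (1.80 ± 0.0346, adjusted p = 4.3e-12), and Pcyt1a, an enzyme of phosphatidylcholine synthesis (1.07 ± 0.0353, adjusted p = 2e-10). Of 22 genes of muscarinic signalling, 8 rose and 13 fell in the Control IP (median -0.17), and 12 rose and 4 fell in the Syn IP (median 0.26). The phospholipases Plcb3 (2.33 ± 0.0394, adjusted p = 2.7e-12) and Plcb2 (-1.996 ± 0.159, adjusted p = 3.5e-07) were the extremes in the former. Over all genes 39.2% rose and 41.2% fell in the Control IP and 35.5% and 35.9% in the Syn IP, with medians of -0.025 and -0.002. Ribosomal scaling moved these medians to 1.17 and 0.45, and the directions in these lists are given without it.

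The loss of SAPAP3 was not accompanied by a change of any member that passed the test. In SAPAP3 cohort input 0 of 10 passed (edgeR), beside 0.00641% of all genes, and 1 had an unadjusted p under 0.05. This was Chrm1, at 175, 165, 166 and 166 CPM in KO input and 166, 151, 152 and 163 CPM in WT input (log2FC 0.12 ± 0.0472, adjusted p = 0.73). Chat was lower by 0.32 ± 0.17 in KO input (adjusted p = 0.73), and without the WT input that stood apart this became -0.12. Chrm4 differed by -0.21 ± 0.11 (-0.09 without that input) and Chrm3 by 0.30 ± 0.298 (0.04 without it). The other members lay between -0.23 and 0.19.

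In SAPAP3 cohort IP 0 of 10 passed, beside 0.0263% of genes, and none had an unadjusted p under 0.05. The values ran from -0.22 ± 0.127 for Chrm4 to 0.30 ± 0.203 for Chrm3, and Chat was at -0.11 ± 0.126. In bulk striatum 0 of 10 passed, beside 0% of genes, and none had an unadjusted p under 0.05. The values there ran from -0.18 ± 0.174 (Chrm4) to 0.08 ± 0.129 (Ache), with Chat at -0.09 ± 0.20. Limma-voom and DESeq2 also called 0 members in each of the 3 comparisons. The medians of the members were -0.07, -0.06 and -0.04. The SEs show the size that could be resolved, which was finer for Chrm1 in input (0.0472) than for Chrm5 in IP (0.436). A missed threshold does not show that the genotypes were alike. Dlgap3, the deleted gene, passed in input (-1.19 ± 0.101, adjusted p = 0.007) and IP (-1.40 ± 0.169, adjusted p = 0.028). In bulk striatum even Dlgap3 missed the threshold (-1.14 ± 0.143, adjusted p = 0.32), so 0 of 10 members passing says little there.

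**Figure D4:**
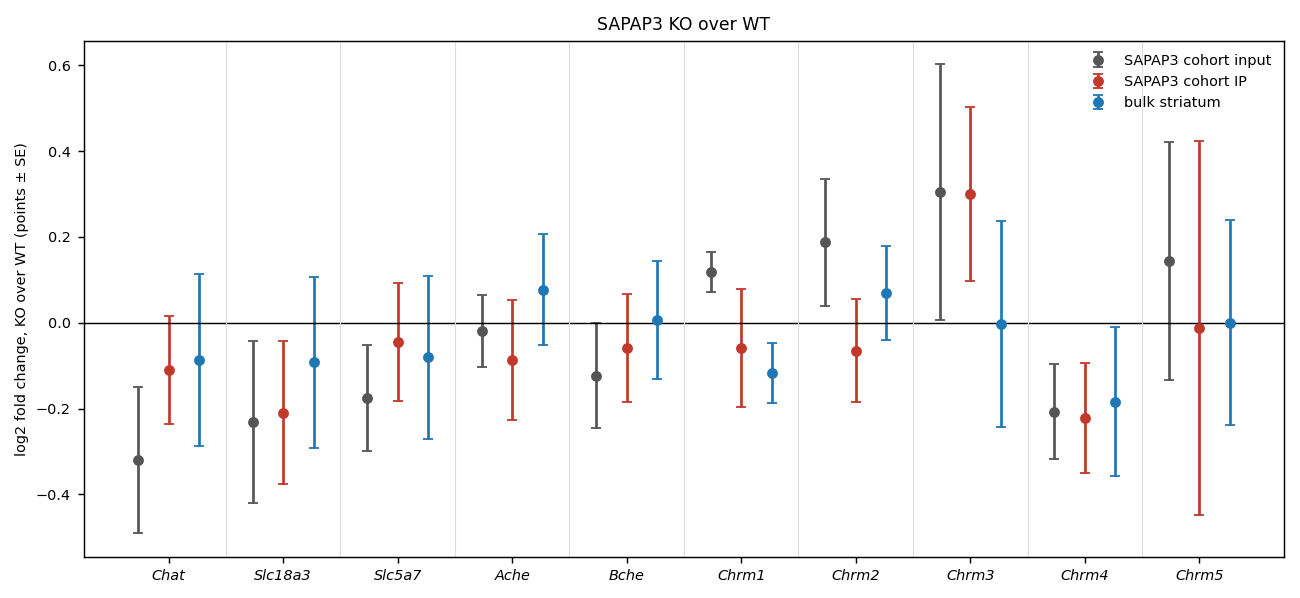
log2 fold change of SAPAP3 KO over WT for each gene in cohort input, cohort IP and bulk striatum. Points are edgeR estimates with SE bars. All points lie between -0.32 and 0.30, and none passed the test.

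Bulk WT libraries also differed among themselves. Chat was at 17.9, 29.7, 28.98 and 16.2 CPM, Chrm3 at 52.2, 27.2, 25.5 and 47.1 CPM and Chrm4 at 80.4, 124, 154 and 94.6 CPM. The second and the third library were high in Chat and Chrm4 and low in Chrm3. The same 2 libraries had 288 and 237 CPM of the cortical markers, against 1086 and 904 in the other bulk WT libraries and 495 to 915 in bulk KO. Without both, 0 members passed, and the KO over WT value of Chat turned from -0.09 to 0.33 (adjusted p = 0.31), that of Slc5a7 from -0.08 to 0.35 and that of Chrm3 from 0.00 to -0.40.

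**Figure D5:**
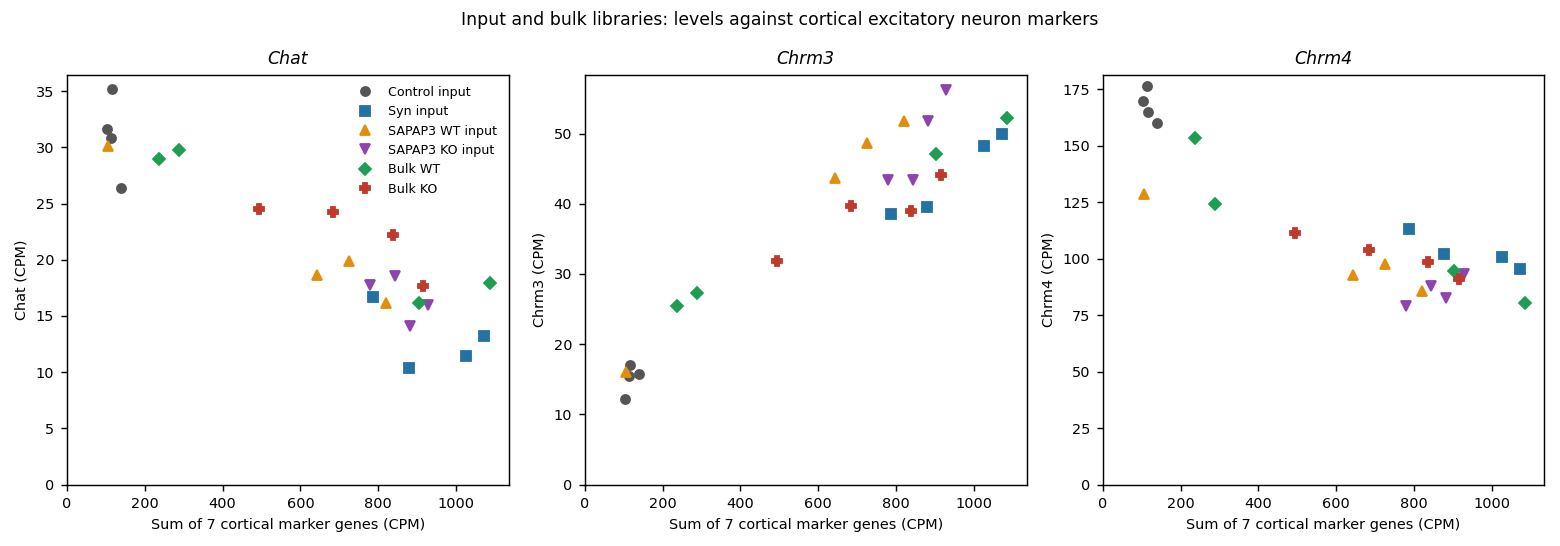
CPM of Chat, Chrm3 and Chrm4 in each input and bulk library (y axes) against the summed CPM of 7 cortical excitatory neuron markers (x axes). Libraries with few cortical markers, such as Control input at 103 to 138 CPM, had 26.4 to 35.2 CPM of Chat and 12.2 to 17.1 CPM of Chrm3, and those of the Syn input, at 786 to 1073 CPM of cortical markers, had 10.3 to 16.6 and 38.5 to 49.9 CPM.

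The genes whose levels followed Chat most closely over the 40 libraries, as Pearson r of log2(CPM + 1), included Slc10a4 (0.991) and Ecel1 (0.991). Those nearest to Slc18a3 included Ecel1 and Slc10a4, those nearest to Slc5a7 Tacr3 (0.991), C130060K24Rik and Slc17a8, and those nearest to Ache Ecel1 (0.986) and Ufsp1. These values include the differences between groups, which all such genes share. With group means removed, Chat still went with Slc10a4 (0.919), Ecel1 (0.909), Lhx8 (0.882) and Tacr3 (0.867), and of the members with Slc5a7 (0.924), Slc18a3 (0.902) and Ache (0.81), and less closely with Chrm4 (0.695) and Chrm5 (0.629). The values for Bche, Chrm1, Chrm2 and Chrm3 were 0.122, -0.04, -0.248 and -0.741.

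The receptors and Bche had other neighbours. Chrm1 was nearest to Ppp2r2c (0.991), B4galnt1 and Zfp365, and Chrm4 to Pde1b (0.978), Sec14l1 and Asic4. Chrm3 was nearest to Sowahb (0.98), Kcnj3 and Necab3, and Chrm2 to Dkk3 (0.938), Sec62 and Abca5. Chrm5 had the weakest, Gpr101 (0.86), Usp29 and Nhs. Bche was nearest to Gltp (0.948), Ugt8a and D16Ertd472e, of which Ugt8a makes the galactolipids of myelin. These correlations are descriptions over libraries that share cohort and depth, and were searched among 14027 genes whose mean reached 1 CPM.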

How the data were processed

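RNA of mouse striatum was measured in 40 libraries (10 groups of 4). The submitters' processing notes name STAR, HTSeq and the build mm10, and raw counts made by the authors per gene symbol were deposited without normalization (24060 symbols, 2 listed more than once). The labels and the paper name different library kits and sequencers, and the counting settings are not given in the sources used here. Depth was 23438112 to 84109800 counts per library, which limits the precision for rare genes such as Chrm5.

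From the deposited counts, CPM used library totals and RPKM the merged exon length in RefSeq GRCm38.p6 (99.2% of symbols matched). Tests used edgeR 4.0.16 in R 4.3.3 (filterByExpr, TMM, quasi-likelihood, Benjamini-Hochberg over all genes tested), with only the compared groups in a fit. SE is the log2FC divided by the square root of F. A gene rose or fell at an adjusted p under 0.05. Input and IP of an animal are pairs by the labels, except in the Syn cohort. There the labels give input and IP different animal numbers, and only the number in the title pairs them. Deviations from group means correlated at 0.251 to 0.796 within all pairs (11762 genes of at least 5 CPM). In the Syn cohort the mean was 0.649 within pairs and -0.197 across them. The counts thus go with the pairing, in the Syn cohort against the animal numbers. Alternatives were limma 3.58.1 (voom), DESeq2 1.42.0, ribosomal scaling, other filters, the replicate block, all 16 SAPAP3 cohort libraries in one fit, Xist as a covariate and leaving out libraries. The script was tested on simulated data. Python 3.11.15 and matplotlib 3.10.9 were used for tables and figures.

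The members and lists were chosen with earlier results of these data known. All members are named. Of each cholinergic list at most the 4 largest changes among called genes are named, and for the closest genes 3 per member (5 for Chat within groups). One gene that these rules select is not reported here. Drd1 and Tmem35a were matched by the older symbols Drd1a and Tmem35. Isl1 and Zic4 were named after their values were seen.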

Additional observations from a re-analysis of the deposited data

Results flagged for a closer look

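In 2 of 100 groups of a member 1 library lay far from the other 3, by a gap above Dixon's 95% limit for 4 samples, a rate that chance gives in about 1 of 20 groups. One Syn IP library had 88.9 CPM of Ache, where the group's median was 68.3. One SAPAP3 cohort KO input had 174.5 CPM of Chrm1, where the median was 165.9.

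IP over input differed between the Syn and the Control cohort for 9 members by the test of the interaction. The differences on the log2 scale (Syn minus Control) were -1.13 for Chat, -1.12 for Slc18a3, -1.33 for Slc5a7, -0.90 for Ache, -1.95 for Bche, 1.25 for Chrm1, 1.64 for Chrm5, -1.29 for Chrm2 and 1.54 for Chrm4. The adjusted p-values stand in the report, and cohort, sex and construct cannot be told apart.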

How the results depend on the processing

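The number of members called stayed within 1.5 times under each alternative run, with 1 exception. In the Syn IP, the filter on FPKM above 5 in at least 4 libraries left 6 members to test, of which 4 passed, against 10 of 10 (without single libraries, 9 to 10). Scaling to ribosomal protein genes turned the direction in the Control IP for Bche (1.10), Chrm1 (0.18), Chrm3 (1.18), Chrm5 (0.03) and Chrm4 (0.42), in SAPAP3 cohort WT IP for Chrm5 (0.68) and Chrm4 (0.42), and in KO IP for Chrm4 (0.32). The median of all genes moved to 1.17, 0.71 and 0.63 there, and to 0.45 in the Syn IP. Single calls were also lost in the Syn IP with that filter (Chrm1 0.06, Chrm3 0.29), and in WT IP with ribosomal scaling (Chrm1 -0.20, Chrm3 -0.19), limma-voom (Chrm3 -0.82, Chrm4 -0.34) and no filter (Chrm4 -0.27). The replicate block called 8, 10, 9 and 9 members in the Control, Syn, WT and KO IPs and 10 in the interaction, and changed no call but that of Chrm3 in the interaction. Of all single values of members under alternatives, 1421 stayed on the same side of the threshold, 25 lost and 4 gained a call, 8 turned as given above, and 105 of the 1421 changed sign while missing the threshold on both sides. The 2 alternatives that leave out libraries by their cortical markers were chosen after seeing the data. The counts do not resolve Chrm5 beyond an SE of 0.18 to 0.56 on the log2 scale.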
